A study of Mus musculus with 16 samples.

Results

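Transforming growth factor beta (TGF-beta) and bone morphogenetic protein (BMP) signalling was described through 10 genes in endothelial cells of the lung, which form the inner lining of its vessels. The genes were taken by symbol from a table of 17715 entries, and each of the 10 symbols had 1 entry. They code for the receptors Acvrl1, Tgfbr1, Tgfbr2 and Bmpr2, the co-receptor Eng, the signal carrier Smad2, the inhibitors Smad6 and Smad7, the repressor Skil and the target gene Id1. RNA was sequenced from endothelial cells purified by fluorescence-activated cell sorting from the lungs of female C57BL/6N mice. The groups were mice with no tumour (d0, called wild-type in the labels), carrying a subcutaneous primary tumour grown from implanted Lewis lung carcinoma (LLC) cells (d15), once that tumour had been resected (d22) and bearing metastases (d36). Each group had 4 libraries, which the series describes as independent biological replicates, and replicate numbers follow the titles. The tumour line is a transplanted mouse lung carcinoma, the d0 mice are not described as operated on, and no group that was only operated on was analysed here. The label of d36 replicate 1 gives d36 as its time point while its title names day 29, and the label was followed.

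In this pathway a ligand brings together type II receptors (Tgfbr2 for TGF-beta, Bmpr2 for BMPs) and type I receptors, which then phosphorylate Smad proteins that enter the nucleus. Endothelial cells carry a type I receptor of their own, Acvrl1 (also called ALK1), which with the co-receptor endoglin (Eng) responds to circulating BMPs and acts through Smad1 and Smad5, whereas Tgfbr1 (ALK5) acts through Smad2 and Smad3. Loss of ACVRL1 or ENG causes hereditary haemorrhagic telangiectasia in people, and mutations of BMPR2 cause heritable pulmonary arterial hypertension, so the pathway is best known in the lung for keeping its vessels in order.

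Levels are given in RPKM, reads per kilobase of transcript scaled to sequencing depth, as deposited by the authors. Depth inferred from the values was about 93.4 to 152.1 M reads a library, so that 1 RPKM stood for at least 93 reads per kilobase. Libraries of a group resembled each other less at d36 (r across entries 0.92 to 0.984) than at d0 (0.98 to 0.99). The endothelial label was checked with 10 pan-endothelial markers, Pecam1 and Cdh5 among them, which were all in the table and tested. Their summed level was 3596 to 4343 RPKM at d15, 3262 to 3880 at d22 and 2872 to 3450 at d36, against 4051 to 4675 at d0, and the d36 libraries lay wholly below those of d0. At d36 replicate 9 stood apart from the others in carcinoma-associated genes and in fibroblast and mural markers. Its sum of leukocyte markers, 43.1 RPKM, was near the 44.9 RPKM of d36 replicate 1. A set of 5 carcinoma-associated genes summed to 843, 735, 538 and 50.7 RPKM in d36 replicates 1, 7, 8 and 9, against 3.97 to 6.37 RPKM at d0. In bulk RNA of this kind, a lower share of cells of a type and less RNA per cell cannot be told apart.

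All 10 genes passed the filter of at least 1 RPKM in at least 4 libraries. Id1 was by far the highest, at 469 ± 27.4 RPKM at d0 (SD, n = 4), above 99.4% of the tested entries by its mean over all libraries. At d0 it was followed by Eng (51.4 ± 5.73 RPKM), Bmpr2 (49.7 ± 6.31), Smad7 (46.2 ± 6.32) and Acvrl1 (36.4 ± 6.07), and the libraries of Eng, Bmpr2 and Smad7 overlapped in level. Skil (15.96 ± 3.19 RPKM), Tgfbr2 (11.3 ± 2.51) and Smad6 (10.5 ± 2.32) came next, then Smad2 (6.84 ± 0.383), and Tgfbr1 was lowest at 2.40 ± 0.124 RPKM. Of the 5 receptor genes, Eng, Bmpr2 and Acvrl1 thus had more RNA per length at d0 than Tgfbr2 and Tgfbr1.

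Differences were tested with limma on log2(RPKM + 1) over 14303 entries, with Benjamini-Hochberg adjustment over all of them, and fold changes are on that scale with their standard error. A moderated F test over the 3 comparisons with d0 called 6 of the 10 genes, namely Skil, Bmpr2, Id1, Smad2, Tgfbr1 and Acvrl1, beside 28.7% of all tested entries. Eng, Tgfbr2, Smad6 and Smad7 did not pass.

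**Figure D1:**
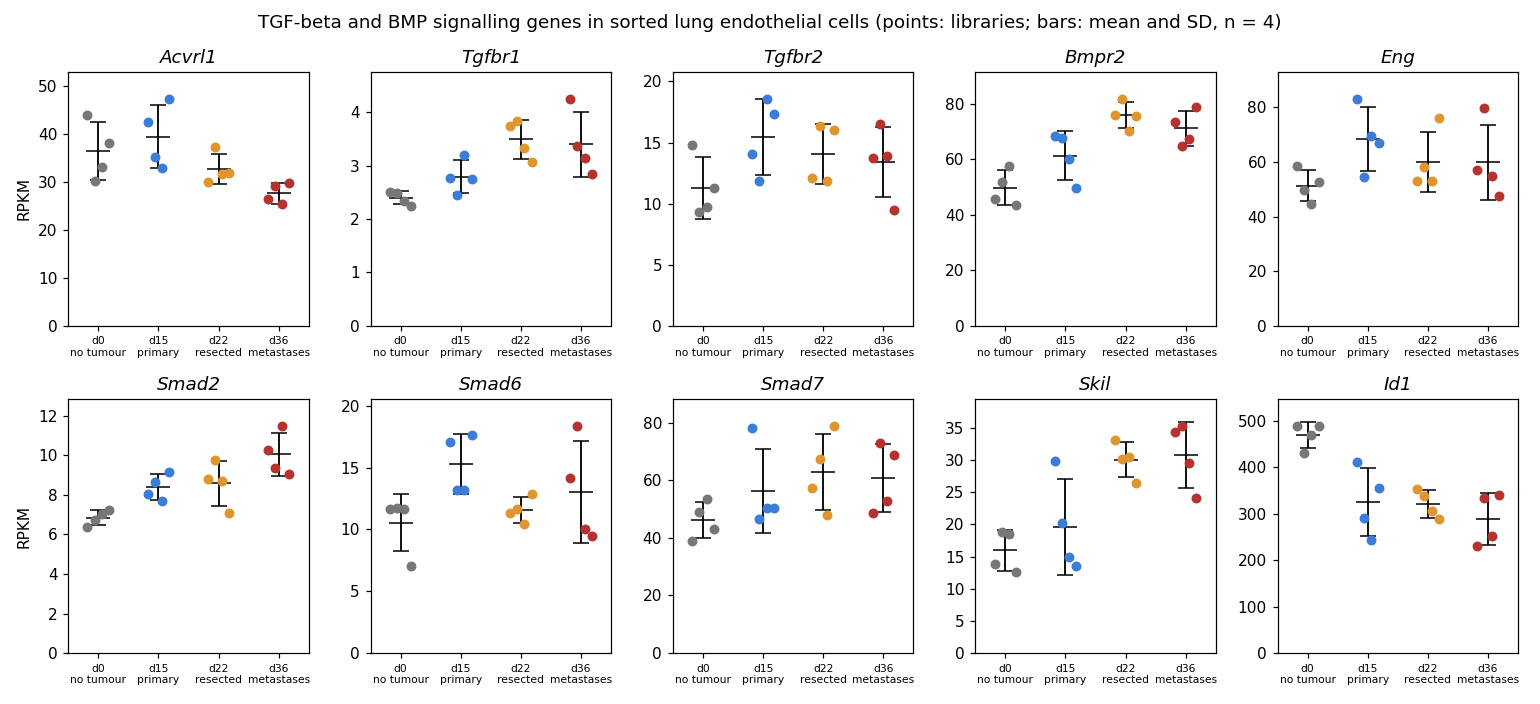
Level of each of the 10 genes in RPKM (linear axes from 0) in the 4 libraries of each group, as points in the order of their replicate numbers, with the mean and SD as bars (n = 4). Skil, Bmpr2 and Tgfbr1 at d22 and d36 sit wholly above d0, Id1 sits wholly below d0 at d15, d22 and d36, and the groups of Eng, Tgfbr2 and Smad7 overlap.

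The type I receptor of TGF-beta and the type II receptor of BMPs were higher after resection and with metastases. Tgfbr1 had 3.74, 3.84, 3.33 and 3.06 RPKM at d22 and 4.25, 3.37, 3.14 and 2.85 RPKM at d36, against 2.51, 2.49, 2.34 and 2.25 RPKM at d0. Every library of d22 and of d36 was above every library of d0. The gene (chromosome 4, 47353222 to 47414931, plus strand, mm10) rose by a log2 fold change of 0.40 ± 0.11 at d22 (adjusted p = 0.0225) and 0.36 ± 0.11 at d36 (adjusted p = 0.0248). At d15 its libraries had 2.45 to 3.20 RPKM and overlapped with d0 (0.15 ± 0.11, adjusted p = 0.531). The d22 call was lost without d0 replicate 3 or 4 and without d22 replicate 1 or 4, with an adjusted p up to 0.0644, and after removal of a transcript length and GC trend (0.24, adjusted p = 0.126). The d36 call was lost without d0 replicate 3 or 4 or d36 replicate 1, with an adjusted p up to 0.088, and it was also lost after removal of the length and GC trend (0.06, adjusted p = 0.687) and with median scaling (0.22, adjusted p = 0.126). A fit of d36 and d0 alone did not call it either (adjusted p = 0.0797). With a block for the replicate number, both calls were lost (adjusted p = 0.0822 at d22 and 0.127 at d36).

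Bmpr2, whose product is the main type II receptor for BMPs in the pulmonary endothelium, was also higher at d22 and d36. It stood at 75.9, 81.7, 70.2 and 75.7 RPKM at d22 and 73.5, 64.9, 67.3 and 78.9 RPKM at d36, against 45.8, 51.7, 57.6 and 43.6 RPKM at d0. Again no library of d22 or d36 overlapped with d0. The gene (chromosome 1, 59763400 to 59879014, plus strand) rose by 0.61 ± 0.12 at d22 (adjusted p = 0.00361) and by 0.51 ± 0.12 at d36 (adjusted p = 0.00544). Both calls held whichever of the 16 libraries was left out. With a block for the replicate number, the d22 call held (adjusted p = 0.00987) and the d36 call was lost (adjusted p = 0.0645). After removal of the length and GC trend, the fold changes were 0.30 (adjusted p = 0.0576) and 0.16 (adjusted p = 0.236). At d15 the gene had 68.3, 67.5, 60.0 and 49.6 RPKM, a log2 fold change of 0.30 ± 0.12 against d0 that did not pass (adjusted p = 0.218). All d22 libraries lay above all d15 libraries, with a difference of 0.31 ± 0.12 that did not pass (adjusted p = 0.146).

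Acvrl1, the endothelial type I receptor, went the other way at d36. It had 26.4, 29.2, 25.4 and 29.9 RPKM at d36 and 30.01, 37.3, 31.8 and 32.0 RPKM at d22, against 44.1, 30.3, 33.2 and 38.2 RPKM at d0. The d36 libraries lay wholly below those of every other group, while the d22 libraries overlapped with d0. The gene (chromosome 15, 101128522 to 101145336, plus strand) fell by 0.37 ± 0.13 at d36 on the log2 scale (adjusted p = 0.0487), close to the threshold, and not after scaling to the pan-endothelial markers, where the value was 0.03 (adjusted p = 0.878). The call held in 4 of the 16 fits that each left out a library, with an adjusted p up to 0.146 without d0 replicate 1. It was lost in a fit of d36 and d0 alone (adjusted p = 0.0792) and with a block for the replicate number (adjusted p = 0.211). Without the intensity trend of the fit the adjusted p was 0.0527. The authors' deposited table, which names no comparison group, gives Acvrl1 a log2 fold change of -0.40 at d36 with an adjusted p of 0.068. The median log2 fold change of the 10 pan-endothelial markers at d36 was -0.43, and 3 of these markers fell. At d15 Acvrl1 had 32.96 to 47.4 RPKM (0.11 ± 0.13 against d0, adjusted p = 0.728).

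Tgfbr2 and Eng had their highest group means at d15. Tgfbr2, the type II receptor of TGF-beta, averaged 15.5 ± 3.07 RPKM at d15, 14.1 ± 2.45 at d22 and 13.4 ± 2.89 at d36, against 11.3 ± 2.51 at d0. Eng averaged 68.5 ± 11.7 RPKM at d15, 60.01 ± 11.01 at d22 and 59.9 ± 13.8 at d36, against 51.4 ± 5.73 at d0. Libraries of both genes overlapped with d0 in every group, and none of these differences passed (lowest adjusted p of 0.245 for Tgfbr2 and 0.224 for Eng, both at d15). In the authors' deposited table, which names no comparison group, Eng had a log2 fold change of 0.46 at d15 with an adjusted p of 0.0339. The level of Eng in d36 replicate 7 was 79.6 RPKM and in d36 replicate 9 it was 47.6 RPKM. Acvrl1 shares 3.0% and Eng 1.5% of their annotated exon bases with a gene on the other strand, so reads of these stretches could not be told apart.

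The sequences before the start sites are shown for 3 receptor genes, since Tgfbr1 was higher at d22 and d36 while Tgfbr2 and Eng had their highest means at d15. They are the 250 bases before the start in RefSeq (GRCm38.p6, the assembly of mm10), at chr4:47352972-47353221 (plus strand), chr9:116175364-116175613 (minus strand) and chr2:32646345-32646594 (plus strand). Capitals mark CAGAC, a short site bound by Smad3 and Smad4 that reads GTCTG on the other strand, and GGCGCC, a palindromic element bound by BMP-activated Smads. The RefSeq table matched 5 of the 10 genes, with 2 windows for Tgfbr1 of which the one at its annotated start is shown, and windows were searched on both strands.
Tgfbr1: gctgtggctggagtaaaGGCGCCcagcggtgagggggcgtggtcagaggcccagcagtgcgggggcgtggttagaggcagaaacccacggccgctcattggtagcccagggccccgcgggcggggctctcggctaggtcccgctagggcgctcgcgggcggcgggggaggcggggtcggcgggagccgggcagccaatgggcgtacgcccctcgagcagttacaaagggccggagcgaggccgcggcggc
Tgfbr2: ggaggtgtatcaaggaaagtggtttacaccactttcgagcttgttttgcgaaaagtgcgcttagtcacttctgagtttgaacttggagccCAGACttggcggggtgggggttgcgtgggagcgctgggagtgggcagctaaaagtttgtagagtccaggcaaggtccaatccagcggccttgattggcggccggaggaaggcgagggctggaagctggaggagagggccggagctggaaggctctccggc
Eng: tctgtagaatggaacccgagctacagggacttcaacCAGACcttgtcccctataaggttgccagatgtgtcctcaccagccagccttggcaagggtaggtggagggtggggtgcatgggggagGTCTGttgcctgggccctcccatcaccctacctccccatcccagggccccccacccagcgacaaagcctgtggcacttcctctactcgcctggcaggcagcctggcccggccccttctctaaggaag

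The Tgfbr1 window holds 1 GGCGCC, which 9.6% of all 32851 promoter windows of this length hold, and no CAGAC. The second Tgfbr1 window, at chr4:47385966-47386215, holds 1 CAGAC and no GGCGCC. The Tgfbr2 window holds 1 CAGAC and the Eng window holds 2, one on each strand, and CAGAC is found in 42.2% of all windows. The motifs do not overlap here, and the full palindrome GTCTAGAC, held by 0.2% of windows, was in none of the 3. GC content was 74.8% before Tgfbr1, 58.4% before Tgfbr2 and 62.4% before Eng. A match in these letters is a description of the window and no evidence of binding.

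**Figure D2:**
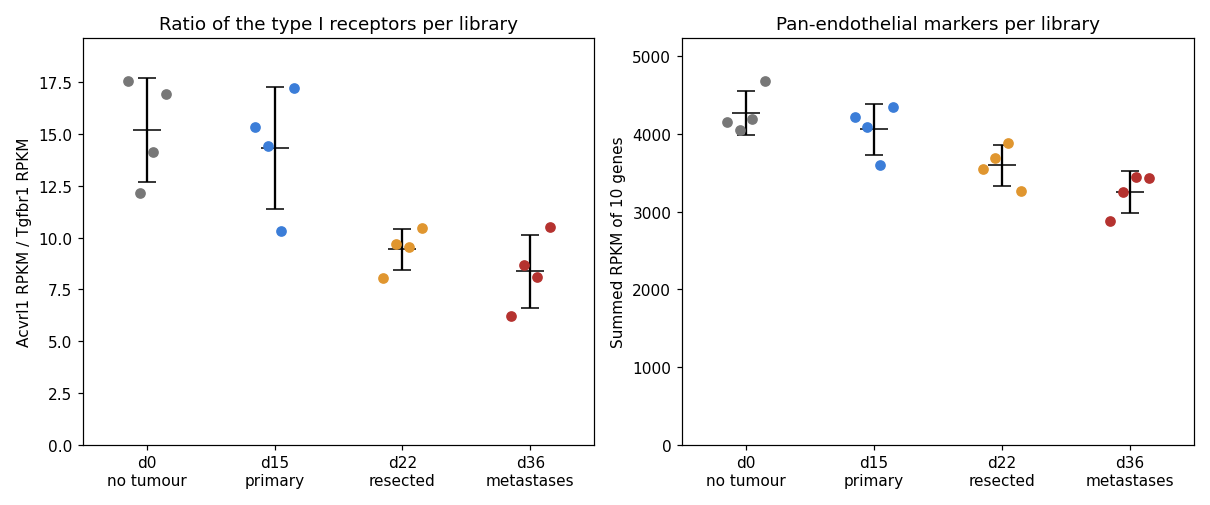
Left, the ratio of Acvrl1 RPKM to Tgfbr1 RPKM in each library. Right, the summed RPKM of 10 pan-endothelial markers. Points are libraries in the order of their replicate numbers and bars are the mean and SD (n = 4), on axes from 0. The ratio is 6.21 to 10.5 at d36 and 8.03 to 10.4 at d22, below the 12.1 to 17.5 of d0, and the marker sum is 2872 to 3450 RPKM at d36, against 4051 to 4675 RPKM at d0.

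Because both type I receptors were measured per length in the same library, their ratio does not depend on how libraries are scaled. The ratio can still follow a transcript length and GC trend. With that trend removed, the log2 fold change of Tgfbr1 against d0 was 0.24 at d22 and 0.06 at d36, against 0.40 and 0.36 with the deposited values. That of Acvrl1 was -0.06 and -0.35, against -0.14 and -0.37. The ratio was chosen after the values of both genes had been seen, so it carries no test. The RNA of Acvrl1 was 8.03, 9.69, 9.54 and 10.4 times that of Tgfbr1 at d22 and 6.21, 8.68, 8.08 and 10.5 times at d36, against 17.5, 12.1, 14.1 and 16.9 times at d0. At d15 the ratio was 15.4, 14.4, 10.3 and 17.2, within the range of d0 in 3 libraries and below it in replicate 5. The plot of this ratio shows that d22 and d36 overlapped with each other and not with d0.

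Smad2 (chromosome 18, 76241580 to 76310963, plus strand), which carries the signal of Tgfbr1 into the nucleus, rose at d36. It had 10.3, 9.37, 11.5 and 9.07 RPKM at d36 and 8.83, 9.76, 8.68 and 7.07 RPKM at d22, against 6.36, 6.73, 7.02 and 7.25 RPKM at d0. All d36 libraries were above all d0 libraries, and d22 replicate 6 lay within d0. The rise at d36 was 0.49 ± 0.11 (adjusted p = 0.00371) and held whichever library was left out. After removal of the length and GC trend it was 0.25 (adjusted p = 0.0647). The call was also lost with a block for the replicate number (adjusted p = 0.140). At d22 the difference of 0.28 ± 0.11 did not pass (adjusted p = 0.0814). At d15 Smad2 had 8.05, 8.67, 7.67 and 9.14 RPKM, all above d0, with a difference of 0.26 ± 0.11 that did not pass either (adjusted p = 0.231).

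The inhibitory Smads, which block the receptors and are themselves switched on by the pathway, did not pass in any comparison. Smad6 had 17.1, 13.2, 13.2 and 17.6 RPKM at d15, against 11.7, 11.8, 11.6 and 7.07 RPKM at d0, so that the groups did not overlap. The difference of 0.51 ± 0.19 had an adjusted p of 0.180, and the difference was 0.35 without d0 replicate 4, the low library. The authors' deposited table gives Smad6 a log2 fold change of 0.57 at d15 with an adjusted p of 0.0416. Smad6 averaged 11.6 ± 1.01 RPKM at d22 and 13.01 ± 4.12 RPKM at d36, with 18.3 RPKM in d36 replicate 7 and 9.48 in d36 replicate 9. Smad7 averaged 56.3 ± 14.6 RPKM at d15, 62.9 ± 13.2 at d22 and 60.7 ± 11.8 at d36, against 46.2 ± 6.32 at d0. Its libraries overlapped with d0 in all groups (adjusted p = 0.524, 0.128 and 0.143 at d15, d22 and d36). In the authors' deposited table Smad7 has an adjusted p of 0.0122 at d22, with a log2 fold change of 0.47.

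Skil rose at d22 and d36. It codes for SnoN, a nuclear partner that represses Smad-driven transcription and is itself a target of TGF-beta. Skil had 33.2, 30.2, 30.5 and 26.5 RPKM at d22 and 34.4, 35.3, 29.5 and 24.1 RPKM at d36, against 13.9, 18.9, 18.4 and 12.6 RPKM at d0. The lowest library of either group was above the highest of d0, and replicate 9 was the lowest of d36. The gene (chromosome 3, 31095058 to 31122577, plus strand) rose by 0.89 ± 0.20 at d22 (adjusted p = 0.00793) and by 0.91 ± 0.20 at d36 (adjusted p = 0.00396). Both calls held in the 16 fits that each left out a library and in the 8 other settings tried, with fold changes of 0.62 at d22 and 0.57 at d36 after removal of the length and GC trend.

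Before resection Skil was uneven. At d15 it had 29.8, 20.2, 14.9 and 13.5 RPKM in replicates 3, 4, 5 and 6, so that one library reached the level of d22 and the last 2 were within d0 (0.24 ± 0.20 against d0, adjusted p = 0.608). Against d15, the difference was 0.65 ± 0.20 at d22 (adjusted p = 0.0795) and 0.68 ± 0.20 at d36 (adjusted p = 0.0367). The second passed in 10 of the 16 fits that left out a library and not in a fit of d36 and d15 alone (adjusted p = 0.133), with median scaling (0.53, adjusted p = 0.0887) or after removal of the length and GC trend (0.43, adjusted p = 0.157).

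Id1, which codes for an inhibitor of basic helix-loop-helix factors and is a direct target of BMP-activated Smads, had lower levels in every library of the 3 later groups than in any library of d0. It had 411, 290, 244 and 356 RPKM at d15, 354, 339, 306 and 288 RPKM at d22 and 231, 333, 253 and 339 RPKM at d36, against 488, 430, 470 and 488 RPKM at d0. The highest of these libraries, at d15, stayed under the lowest of d0. The gene (chromosome 2, 152736251 to 152737410, plus strand) fell by 0.54 ± 0.16 at d22 (adjusted p = 0.0301) and by 0.72 ± 0.16 at d36 (adjusted p = 0.00445) on the log2 scale. At d15 the difference of -0.55 ± 0.16 was as large as at d22 but did not pass (adjusted p = 0.0932), and the authors' deposited table has -0.47 there with an adjusted p of 0.0283.

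The d36 call of Id1 held whichever library was left out and with the length and GC trend removed. After scaling to the pan-endothelial markers the difference was -0.32 (adjusted p = 0.103) at d36 and -0.31 (adjusted p = 0.170) at d22. The d22 call was also lost without d0 replicate 1, 3 or 4 or d22 replicate 5 or 6, with an adjusted p up to 0.0905, and after removal of the length and GC trend (-0.44, adjusted p = 0.0844). A block for the replicate number removed the d22 call too (adjusted p = 0.134). Id1 at d22 and at d15 differed by 0.01 ± 0.16 (adjusted p = 0.991), and at d36 and d15 by -0.16 ± 0.16 (adjusted p = 0.568).

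**Figure D3:**
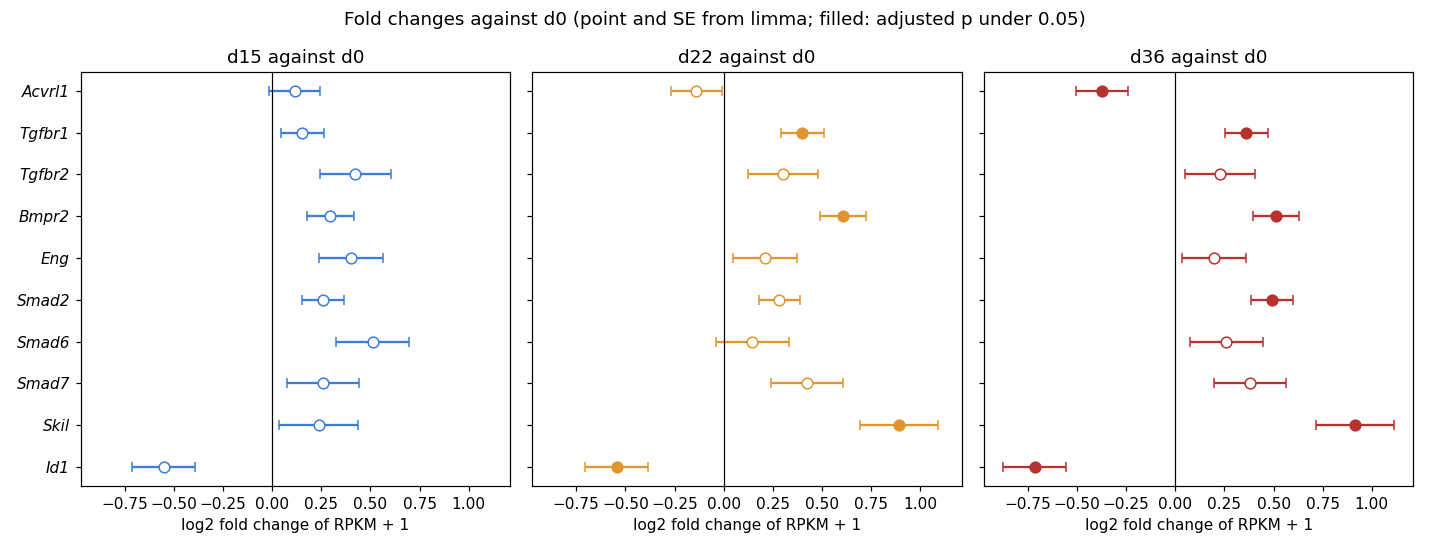
Log2 fold change of RPKM + 1 of the 10 genes at d15, d22 and d36 against d0, with the standard error from limma (n = 4 a group). Filled points have an adjusted p under 0.05. Skil, Bmpr2 and Tgfbr1 are filled and right of 0 at d22 and d36, Smad2 is filled at d36, Id1 is filled and left of 0 at d22 and d36 and open at d15, and Acvrl1 is filled and left of 0 at d36. When libraries are scaled to pan-endothelial markers, the Acvrl1 value at d36 is 0.03 and both Id1 calls are lost.

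Counted over the 10 genes, none was called at d15 in limma, beside 1.18% of all tested entries, and 5 higher and 1 lower had an unadjusted p under 0.05. The authors' deposited table has 3 of the 10 with an adjusted p under 0.05 at d15, Eng, Smad6 and Id1. At d22, 3 rose and 1 fell, beside 15.2% of all tested entries called (8.09% higher and 7.10% lower). At d36, 4 rose and 2 fell, beside 24.0% (16.6% higher and 7.37% lower). The groups did not overlap for 3 of the 10 genes at d15 (beside 12.3% of all tested entries), 4 at d22 (beside 26.5%) and 6 at d36 (beside 21.4%). After removal of the length and GC trend, 1 rose and none fell at d22 (beside 11.5% of the entries with both values), and 1 rose and 2 fell at d36 (beside 25.7%). With libraries scaled to the pan-endothelial markers, 5 rose at d22 (beside 22.8% of all tested entries higher) and 8 at d36 (beside 55.5%), with none lower in either. With median scaling, all tested entries split into 10.5% higher and 17.1% lower at d36, and 3 of the 10 genes rose and 2 fell. Under pan-endothelial scaling the median of all tested entries was 0.26 at d22 and 0.44 at d36, so most genes were higher relative to these markers. With the deposited values, the median of the 10 genes was 0.26 at d15, 0.29 at d22 and 0.31 at d36. Over all tested entries it was -0.02, 0.02 and 0.04. These 3 comparisons share the d0 libraries.

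Between the later times few of the 10 genes differed. At d36 against d15, Skil rose and Acvrl1 fell (log2 fold change -0.49 ± 0.13, adjusted p = 0.0242), beside 11.5% of all tested entries called (9.87% higher and 1.64% lower). The Acvrl1 call passed in 12 of the 16 fits that left out a library, and not in a fit of the 2 groups alone (adjusted p = 0.0916). After scaling to the pan-endothelial markers it was -0.19 (adjusted p = 0.269). At d22 against d15 none passed in limma, beside 3.06% of all entries, and 3 of the 10 had an unadjusted p under 0.05. At d36 against d22 none passed, beside 11.8%, and 0 had an unadjusted p under 0.05. The d36 libraries did not overlap with those of d15 for 1 of the 10 genes (Acvrl1, beside 11.2% of all tested entries) and with those of d22 for the same gene (beside 13.6%).

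At d36, markers of other cells also differed from d0. The table held 7 leukocyte markers, of which 5 were tested and 4 rose, and their sum was 43.1 to 115 RPKM at d36, against 32.1 to 39.2 RPKM at d0. The 7 fibroblast and mural markers summed to 4.47 to 44.4 RPKM at d36, against 4.53 to 5.53 at d0, with 1 of 4 tested genes called. The 8 lung epithelial markers summed to 403 to 1106 RPKM at d36, against 770 to 1955 RPKM at d0. Their median log2 fold change was -0.34, and 1 of the 7 tested rose. The 4 tested carcinoma-associated genes all rose. Immediate-early and dissociation genes summed to 835 to 6406 RPKM at d36, against 604 to 1060 RPKM at d0, and 7 of 10 rose. The 3 tested cell cycle genes rose too, and the 5 in the table summed to 6.04 to 76.1 RPKM at d36, against 0.403 to 0.777 RPKM at d0. At d15 this sum was 0.619 to 1.19 RPKM. No d0 library reached 1 RPKM even in the sum, so these genes passed the filter only through later groups. Their calls at d36 are thus not independent of the filter. At d15 the mean log2(RPKM + 1) of 8 lung epithelial markers was 4.45 to 5.38, against 3.65 to 4.39 at d0, without overlap and with a median log2 fold change of 1.03, and none of the 7 tested was called. No marker of these lists was at 0 in all 16 libraries. At d22 the leukocyte sum was 30.6 to 38.9 RPKM and the carcinoma-associated sum 8.61 to 11.8 RPKM, and no gene of these 2 lists was called. The carcinoma-associated sum still lay wholly above the 3.97 to 6.37 RPKM of d0. The cell cycle sum at d22, 0.932 to 8.92 RPKM, was also wholly above d0, with no gene called. Of the 10 immediate-early and dissociation genes, 1 rose at d22. The part of these markers in the results at d15, d22 and d36 was not tested. In d36 replicate 9, where the carcinoma-associated sum was lowest, Skil, Bmpr2 and Tgfbr1 were at 24.1, 78.9 and 2.85 RPKM and Id1 at 339 RPKM.

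The other genes of the pathway were grouped by role. Of 92 listed genes 70 were in the table and 62 were tested, the 10 genes above included. At d15, 2 rose and 1 fell (4.84%, beside 1.18% of all entries), at d22, 8 rose and 4 fell (19.4%, beside 15.2%), and at d36, 21 rose and 4 fell (40.3%, beside 24.0%). The share at d22 was near that of all entries. The rises at d36 include Tgfb3 and Fn1, which passed the filter only through the d36 libraries. Without d36 replicate 9, 12 rose and 7 fell at d22 and 26 rose and 6 fell at d36, and without d36 replicate 1, 21 rose and 1 fell at d36. Relative to the pan-endothelial markers, 21 rose and 1 fell at d22 and 46 rose and none fell at d36, beside 22.8% and 55.5% of all tested entries higher.

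Of the ligands, 8 of 15 were in the table and 6 were tested. None was called at d15 or d22 in limma, with 1 and 0 at an unadjusted p under 0.05, and 2 rose at d36. Of all tested entries, 1.18% and 15.2% were called at d15 and d22, and 16.6% were higher at d36. Tgfb3 averaged 4.10 ± 1.97 RPKM at d36, against 0.501 ± 0.0931 RPKM at d0 (log2 fold change 1.65 ± 0.25, adjusted p = 0.000308). In the other groups no library exceeded 0.9998 RPKM, so Tgfb3 passed the filter only through d36. Its call thus rests on the group that admitted it to the test. Tgfb1, the main TGF-beta of blood and immune cells, averaged 2.08 ± 0.903 RPKM at d36, against 0.893 ± 0.118 RPKM at d0 (0.66 ± 0.17, adjusted p = 0.00997). Inhbb, which codes for an activin subunit, had 2.51 ± 1.40 RPKM at d15, against 0.598 ± 0.278 RPKM at d0, and did not pass (adjusted p = 0.0761). Bmp4 did not pass in any comparison with d0 (lowest adjusted p of 0.288).

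Of 11 tested receptors and co-receptors, besides Tgfbr1, Bmpr2 and Acvrl1 described above, Bambi was called at d36. Bambi, a pseudoreceptor that lacks a kinase, averaged 8.45 ± 1.81 RPKM at d36, against 4.98 ± 0.780 RPKM at d0 (0.65 ± 0.17, adjusted p = 0.0103), and 8.45 ± 0.769 RPKM at d15 (adjusted p = 0.0625). No receptor was called higher at d36 after removal of the length and GC trend, Bambi included. Tgfbr3, Acvr2b and Acvr1b did not pass, with lowest adjusted p of 0.051, 0.0702 and 0.357. Of 7 tested Smad genes, none passed at d15 or d22 in limma, with 2 and 5 at an unadjusted p under 0.05. Of all tested entries, 1.18% and 15.2% were called at d15 and d22, and 16.6% were higher at d36. Besides Smad2, Smad3 (1.94 ± 0.860 RPKM at d36, against 0.724 ± 0.292 at d0, adjusted p = 0.0144) and Smad4, the shared partner of the others (10.3 ± 2.08 RPKM at d36, against 7.24 ± 1.08 at d0, adjusted p = 0.0349), rose at d36. Smad3 was at 0.679 RPKM in d36 replicate 9, within the d0 range, and at 2.18 to 2.60 RPKM in the other 3 libraries. After removal of the length and GC trend, 1 of the 7 Smad genes was called at d36. Smad1 and Smad5, which serve BMP receptors, did not pass (lowest adjusted p of 0.137 and 0.131).

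Of 6 tested nuclear corepressors and ubiquitin ligases, Skil included, 3 rose at d22 and 4 at d36, with none lower. Of all tested entries, 8.09% were higher at d22 and 16.6% at d36. The scalings tried gave 3 at d22 and 4 at d36, apart from 5 at d36 with pan-endothelial scaling. Under that scaling 55.5% of all tested entries were higher at d36. Smurf2, a ubiquitin ligase for receptors and Smads, averaged 10.9 ± 0.204 RPKM at d22 and 9.61 ± 1.26 RPKM at d36, against 5.62 ± 1.15 RPKM at d0 (log2 fold changes 0.86 ± 0.14 and 0.69 ± 0.14, adjusted p = 0.0011 and 0.00193). Rnf111 (Arkadia), a ubiquitin ligase that targets SnoN and Smad7 for breakdown, averaged 7.48 ± 0.394 RPKM at d22 and 7.58 ± 0.692 RPKM at d36, against 4.89 ± 0.750 RPKM at d0 (0.53 ± 0.11 and 0.55 ± 0.11, adjusted p = 0.00405 and 0.00178). The corepressor Tgif1 rose at d36 (1.08 ± 0.21, adjusted p = 0.00204), with values of -0.09 at d15 and -0.12 at d22. Ski, the close relative of Skil, did not pass in any comparison (14.4 ± 2.50 RPKM at d36, against 14.9 ± 2.02 at d0, adjusted p = 0.804).

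Among 10 tested genes that store, release or bind the ligands outside the cell, 2 rose at d15, 3 rose and 1 fell at d22, and 5 rose and 1 fell at d36. Of all tested entries, 1.18%, 15.2% and 24.0% were called in either direction in these comparisons. Crim1, a membrane protein that binds BMPs, averaged 16.4 ± 0.996 RPKM at d15, 18.6 ± 2.22 at d22 and 16.8 ± 4.30 at d36, against 9.64 ± 1.32 at d0, and rose in all 3 comparisons (adjusted p = 0.0347, 0.00201 and 0.00373). Thbs1, a matrix protein that can activate latent TGF-beta, averaged 8.89 ± 2.18 RPKM at d36 and 6.13 ± 0.895 at d22, against 3.53 ± 0.0904 at d0 (adjusted p = 0.000302 and 0.0155). Lrg1, a secreted modulator of endothelial TGF-beta signalling, was the other rise at d15, at 308 ± 105 RPKM against 37.9 ± 9.87 RPKM at d0. Ltbp1, which holds latent TGF-beta in the matrix, rose at d36 (5.39 ± 2.98 RPKM, against 1.06 ± 0.245 at d0, adjusted p = 0.002). Its level was 5.32 to 8.25 RPKM in 3 of the d36 libraries and 1.29 RPKM in replicate 9, near the highest d0 library (1.21 RPKM). Ltbp4 rose at d22 (13.2 ± 3.31 RPKM, against 7.22 ± 0.979 at d0, adjusted p = 0.0167). Nrros, which anchors latent TGF-beta on cell surfaces, fell at d22 and d36 (37.4 ± 3.91 and 37.5 ± 7.10 RPKM, against 53.3 ± 9.58 at d0, adjusted p = 0.0332 and 0.0211).

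**Figure D4:**
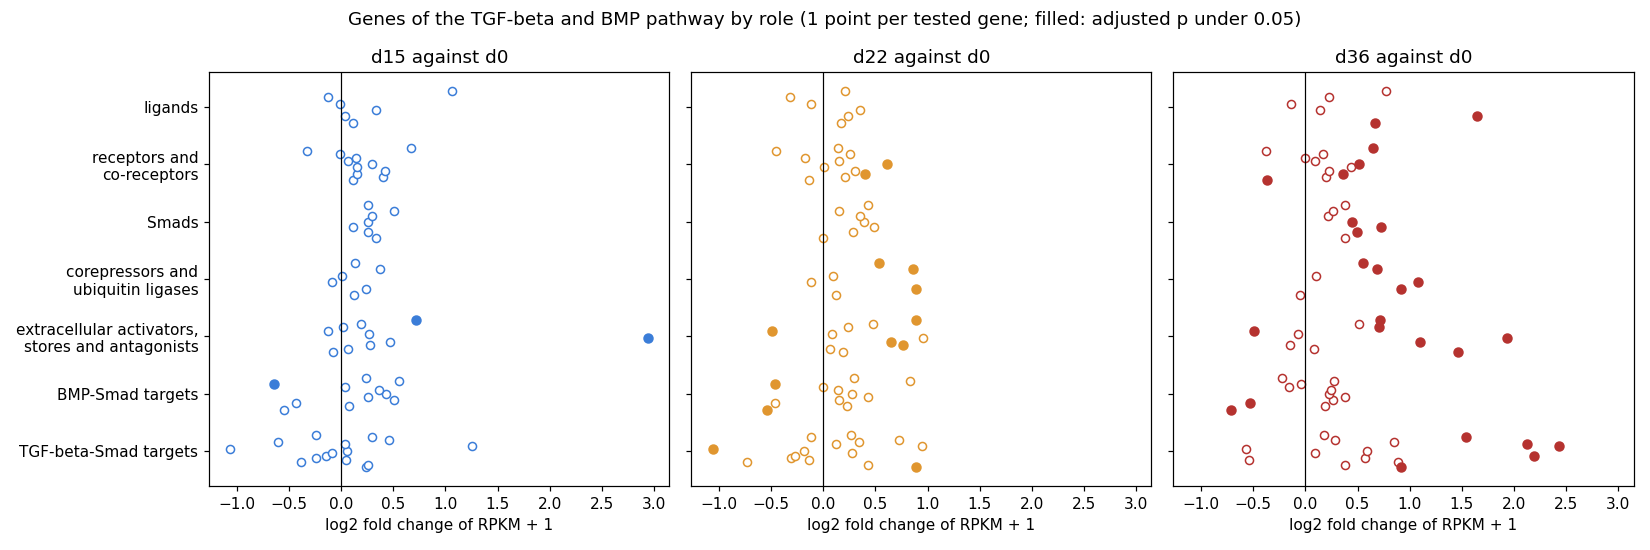
Log2 fold change of RPKM + 1 against d0 for every tested gene of 7 lists of the pathway, at d15, d22 and d36. Each point is a gene, filled where its adjusted p is under 0.05, and a gene in more than 1 list is drawn in each. Corepressors and ubiquitin ligases have 3 filled points right of 0 at d22 and 4 at d36, and the filled points of BMP-Smad targets lie left of 0. Of all tested entries, 8.09% were higher at d22 and 16.6% at d36. When libraries were scaled to pan-endothelial markers, 6 BMP-Smad targets rose at d36, beside 55.5% of all tested entries.

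The target genes of the 2 arms were counted apart. Of 11 tested BMP-Smad targets, 1 fell at d15, 2 at d22 and 2 at d36 with the deposited values, and none rose. Of all tested entries, 1.18% were called in either direction at d15, and 7.10% and 7.37% were lower at d22 and d36. Relative to the pan-endothelial markers, 3 of the 11 rose at d22 and 6 at d36, and none fell. These counts were near the shares of all tested entries higher under that scaling (22.8% and 55.5%). Id3, a relative of Id1, averaged 855 ± 191 RPKM at d36, against 1219 ± 127 RPKM at d0 (-0.53 ± 0.16, adjusted p = 0.0252). It had 909 ± 144 RPKM at d15 and 884 ± 107 RPKM at d22, which did not pass (adjusted p = 0.191 and 0.0614). Unc5b, a guidance receptor of endothelial tip cells, fell at d15 (4.26 ± 0.358 RPKM, against 7.26 ± 0.708 at d0, adjusted p = 0.0106) and d22 (5.01 ± 0.735 RPKM, adjusted p = 0.00888) and stood at 6.99 ± 0.427 RPKM at d36. Hey1 and Gja5 did not pass, with lowest adjusted p of 0.141 and 0.0964. Tmem100, a BMP target that is high in lung endothelium, had 1070 ± 148 RPKM at d36, against 1193 ± 151 at d0 (adjusted p = 0.426).

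Of 15 tested TGF-beta-Smad targets, none was called at d15 in limma, with 1 at an unadjusted p under 0.05. At d22 Skil rose and the cell cycle inhibitor gene Cdkn2b fell (5.37 ± 0.568 RPKM, against 12.6 ± 3.26 at d0, adjusted p = 0.0129). At d36, 5 rose and none fell, namely Skil, Fn1, Tgfbi, Snai1 and Junb. Of all tested entries, 1.18% and 15.2% were called at d15 and d22, and 16.6% were higher at d36. Junb is also counted among the immediate-early and dissociation genes above. It had 826.5 RPKM in d36 replicate 7 and 39.1 RPKM in d36 replicate 9, within the d0 range. Fn1, the fibronectin gene, averaged 4.06 ± 2.09 RPKM at d36, against 0.0559 ± 0.0264 RPKM at d0 (2.13 ± 0.24, adjusted p = 4.7e-05). In the other groups its libraries had 0.0223 to 0.248 RPKM, so Fn1 passed the filter only through d36. Its call, counted among these rises, thus rests on the group that admitted it to the test. Tgfbi, a secreted matrix gene named for its induction by TGF-beta, averaged 14.6 ± 9.05 RPKM at d36, against 1.795 ± 0.462 RPKM at d0 (2.19 ± 0.40, adjusted p = 0.00119). Snai1, a repressor of junction genes, averaged 6.395 ± 4.19 RPKM at d36, against 1.23 ± 0.402 RPKM at d0 (1.54 ± 0.33, adjusted p = 0.0032). In d36 replicate 9 Snai1 was at 1.60 RPKM, within the d0 range, and in the other 3 libraries of d36 it was at 5.63 to 11.8 RPKM. That replicate was also the lowest of d36 for Fn1 (1.11 RPKM), Tgfbi (2.63 RPKM) and Tgfb3 (1.15 RPKM), which lay above d0. Tumour, leukocyte and fibroblast markers moved at d36 with the values given above, and their part in these rises was not tested.

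The genes with the pattern most like Id1 over the 16 libraries, by the root mean square difference of centred log2 values, were Mrpl53, which codes for a mitochondrial ribosomal protein (0.13), Zfand2b (0.14) and Pllp, the plasmolipin gene (0.15), against a median of 0.42 over all entries. Mrpl53 averaged 34.9 RPKM at d36, 35.2 at d22 and 36.9 at d15, against 53.1 at d0. Those most like Acvrl1 were E430018J23Rik, Sharpin and Gm10353 (0.13 each), against a median of 0.35. Sharpin, of the linear ubiquitin ligase complex, averaged 39.7 RPKM at d36, against 48.3 RPKM at d0.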

How the data were processed

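RNA of 16 sorted lung endothelial libraries, 4 per time point, was made with a SMARTer Ultra Low kit and an input of 10 ng, per the labels' protocols. The authors deposited 1 table of RPKM values, in which d15, d22 and d36 each also have the authors' own adjusted p-value and log2 fold change, per the file headers. The submitters' processing notes of the authors name STAR, DESeq2 and mm10, with no roles or versions. Which annotation, lengths and strand setting were used is not given in the sources used here. The direction of the authors' deposited log2 values was that of the differences from d0 computed here in 30 of 30 cases.

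The 14303 of 17715 entries that reached 1 RPKM in 4 or more libraries were fitted as log2(RPKM + 1) with limma 3.58.1 (R 4.3.3), 4 groups in 1 fit with an intensity trend and no covariate. Contrasts were two-sided and adjusted by the Benjamini-Hochberg method over all tested entries, with a threshold of 0.05. The fit was tested on simulated data for d22 against d0 (14303 entries, 200 changed) and recovered 91% of changes of 1 and 100% of changes of 2 on the log2 scale. The pseudocount understates changes of genes near or under 1 RPKM.

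Depth was inferred from the step between low RPKM values. With the relative depths found, 133 of 3441 low entries gave whole numbers of reads for every one of the 16 libraries (tolerance 0.1 read, at most 40 reads), while wrong depths gave 0, and 17 genes with a single transcript set the scale. Since most entries were not whole, no count test was run. Alternatives were a pseudocount of 0.1, no filter, fits of 2 groups, median scaling, a block for the replicate number, removal of a trend with GENCODE M21 transcript length and GC content, no intensity trend, leaving out each library and, added after the data had been seen, scaling to 10 pan-endothelial markers and the list counts under other scalings or without single d36 libraries. The members and lists were chosen with earlier results of these data known. All 10 genes are described, and of each list up to 4 further genes with the smallest p in the F test, and other genes making up a small count were named after their values were seen. The result of 1 gene that this rule names is not reported here. The labels do not say how animals map to libraries beyond calling them biological replicates, so p-values measure the spread between these libraries.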

Additional observations from a re-analysis of the deposited data

Results flagged for a closer look

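Within groups of 4 libraries, 2 of 40 sets of values had 1 library whose distance to the nearest other exceeded Dixon's critical share of the range of the set on the log2 scale, and chance gives about 1 in 20. Smad6 at d0 was 7.07 RPKM in replicate 4 and 11.6 to 11.8 RPKM in the other libraries. Without that library its difference at d15 was 0.35 on the log2 scale, against 0.51 with it, and at d22 it was -0.02, against 0.15. Smad7 at d15 was 78 RPKM in replicate 3 and 46.5 to 50.3 RPKM in the others, and without that library its difference from d0 was 0.09, against 0.26 with it.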

How the results depend on the processing

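The direction and side of the threshold of 38 fold changes of the 10 genes were compared under 912 alternatives, of which 830 left both as they were, 59 lost a call, 13 gained one and 10 turned the sign. The Skil calls at d22 and d36 held under every alternative run. With the length and GC trend removed (76.3% of tested entries and all 10 genes have both values), 1 gene was called at d22, 3 at d36 and 1 at d36 against d15. Of the entries with both values, 11.5%, 25.7% and 10.5% were called in these comparisons. Bmpr2 at d36 against d15 became -0.033. With pan-endothelial scaling, 1 gene was called at d22 against d15, 4 at d36 against d15 and 1 at d36 against d22. Of all tested entries, 6.46%, 43.0% and 18.2% were called in these comparisons. Acvrl1 became 0.10 at d22 and 0.027 at d36, and Id1 at d36 against d15 became 0.13. With median scaling, 1 gene was called at d36 against d15, beside 10.6% of all tested entries, and Id1 at d22 against d15 became -0.054. A fit of d36 and d15 alone called 0 of the 10 genes, beside 401 of all tested entries. The cause was not tested. Samples with the same replicate number had r of deviations from -0.11 to 0.22, over 0.1 in 2 of 9 pairs. Pairs with other numbers ran from -0.36 to 0.35. These values do not show a pairing by number, but so few pairs cannot exclude one. With the numbers as a replicate block, 2 genes were called at d36, 2 in the F test, 1 at d22 against d15 and 0 at d36 against d15. The block called 1134 of all tested entries at d36, 735 at d22 against d15 and 465 at d36 against d15.

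Leaving out single libraries gave 0 calls at d15, 2 to 4 at d22, 4 to 6 at d36, 0 to 1 at d22 against d15, 0 to 2 at d36 against d15, 0 at d36 against d22 and 4 to 6 in the F test. Id1 at d22 against d15 ran from -0.12 to 0.13, and Smad6 at d22 from -0.018 to 0.20. Over all tested entries, leaving out libraries gave 24 to 482 calls at d15 (169 with all), 1177 to 2890 at d22 (2173) and 2426 to 5013 at d36 (3430). The replicate block gave 102, 1293 and 1134, pan-endothelial scaling 84, 3452 and 8009, and fits of 2 groups 478 at d15 and 2052 at d36. No filter gave 99 at d15, and removing the length and GC trend 1251 at d22. Between later times, leaving out libraries gave 136 to 1018 at d22 against d15, 897 to 2975 at d36 against d15 and 872 to 3771 at d36 against d22.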
